A study of Rattus norvegicus with 4 samples.

Results

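Microtubules are built from dimers of alpha-tubulin and beta-tubulin, and each of these proteins is encoded by several genes, the tubulin isotypes. Levels of 10 isotype genes were measured by RNA-seq in cultured heart muscle cells: Tuba1a, Tuba1b, Tuba1c, Tuba4a and Tuba8 of the alpha group, and Tubb2a, Tubb2b, Tubb4b, Tubb5 and Tubb6 of the beta group. These genes were selected by symbol from a table of 15731 genes, with their values in the same libraries already known, so that the values are given as a description. All 10 of 10 were found, in 11 table entries, because Tuba1c is listed under a pair of Ensembl identifiers. Ventricular cardiomyocytes of wild type Wistar rats at postnatal day 1 were transfected, using Lipofectamine RNAiMAX, with 1 of 4 mimics, namely hsa-miR-25-3p, hsa-miR-93-5p, hsa-miR-106b-5p or, as control, the worm miRNA cel-miR-67. RNA was taken 72 h after transfection, and each mimic gave 1 library. Values are named by the mimic that the culture received. The dose is stated as 25 nM in one protocol text and as 25 mM in another. With 1 library per mimic, no difference reported here has a replicate check, and all comparisons with control share the same cel-miR-67 library.

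Isotypes differ mainly in the acidic tails at the end of the protein, which carry most of the modifications that microtubules receive in cells. Tubulin levels are held in balance by autoregulation, in which TTC5 binds nascent tubulin chains at the ribosome and brings about decay of the tubulin mRNA when free dimers are plentiful. In heart muscle cells microtubules resist contraction, above all where the final tyrosine of alpha-tubulin has been removed, and they form the spindle when the cells divide. Alpha-tubulin protein served as a loading control on an immunoblot in the study, whereas the values here are RNA levels.

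Mature sequences of the transfected miRNAs are given to show which mimics share a seed, the stretch that pairs with target mRNAs. The sequences are the rat entries of RefSeq on build GRCr8, printed 5′ to 3′ with bases 2 to 8 in capitals, whereas the mimics carry the human names. All 3 lie on the minus strand of chromosome 12, at chr12:22157103-22157123 for miR-106b, chr12:22156894-22156916 for miR-93 and chr12:22156652-22156673 for miR-25.
rno-miR-106b-5p: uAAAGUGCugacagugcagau
rno-miR-93-5p: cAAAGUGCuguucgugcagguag
rno-miR-25-3p: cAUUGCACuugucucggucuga
The seeds of miR-106b and miR-93 are the same, AAAGUGC, and that of miR-25 is AUUGCAC.

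Promoters of Tuba1b, Tuba4a and Tubb5 are shown because these genes were the most abundant alpha isotype, the isotype that varied most over the libraries and the beta isotype with most reads. Each is the 250 bases before the RefSeq gene start on build GRCr8, 5′ to 3′ on the strand of the gene, with CCAAT on either strand and TATAA on the strand of the gene in capitals. Their coordinates are chr7:131972588-131972837 on the minus strand for Tuba1b, chr9:84162585-84162834 on the minus strand for Tuba4a, and chr20:2917327-2917576 on the plus strand for Tubb5.
Tuba1b: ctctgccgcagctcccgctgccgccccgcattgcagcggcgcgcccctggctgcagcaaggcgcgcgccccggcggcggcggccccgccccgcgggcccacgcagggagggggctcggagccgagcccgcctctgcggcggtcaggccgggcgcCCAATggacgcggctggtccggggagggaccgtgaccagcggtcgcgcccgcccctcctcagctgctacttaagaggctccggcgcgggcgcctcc
Tuba4a: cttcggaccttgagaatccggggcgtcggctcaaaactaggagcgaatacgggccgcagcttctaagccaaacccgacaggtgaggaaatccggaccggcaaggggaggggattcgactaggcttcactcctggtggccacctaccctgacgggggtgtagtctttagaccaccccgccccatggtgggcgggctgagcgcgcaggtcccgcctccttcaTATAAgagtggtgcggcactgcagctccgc
Tubb5: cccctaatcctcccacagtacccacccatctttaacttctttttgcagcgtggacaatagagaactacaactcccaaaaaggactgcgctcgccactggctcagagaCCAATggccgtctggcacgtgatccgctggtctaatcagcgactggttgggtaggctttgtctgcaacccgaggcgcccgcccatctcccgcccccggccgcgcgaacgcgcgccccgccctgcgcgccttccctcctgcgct
The match to CCAAT, the letters of the CCAAT box, began 96 bases before the start in Tuba1b and 143 bases before it in Tubb5, while Tuba4a held no CCAAT and had TATAA, the letters of a TATA box, 30 bases before its start. All 10 isotype genes were matched by symbol to the RefSeq promoter table, whose windows run from 250 bases before to 50 bases after the start. Of the 10 windows, 7 held CCAAT on either strand, beside 37.5% of all 33469 windows of the same length, and Tubb4b held 4 matches. TATAA on the gene strand was found in 5 of 10, those of Tuba1a, Tuba1c, Tuba4a, Tubb2a and Tubb4b, beside 18.4% of all windows. GGGCGG on either strand, the letters of a GC box, was found in 8 of 10 beside 33.1%, in windows of the isotype genes whose GC content was between 53% and 75.7% beside a median of 51.7% over all windows. TTTGAA, the core of the CHR element of genes expressed in G2 and mitosis, was found in 2 of 10, Tuba1c and Tubb4b, beside 18.3%. CACGTG, an E box, was found in 2 of 10, Tuba8 and Tubb5, beside 6.42%. None of the motifs searched contains another, and a match is a description of the sequence, not evidence of a bound factor.

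Levels are given as RPKM, read numbers divided by gene length and by library size, as the authors deposited them. Whole reads that fit the RPKM values were found for all 15731 genes, and these numbered between 15175139 and 18797178 per library over the listed genes. The smallest gene length that gave whole reads in every library was used. A gene whose reads and length share a factor may therefore have been given too few reads. Ratios of a mimic over cel-miR-67 carry a 95% exact interval (Clopper-Pearson, from the recovered reads), which covers counting error only and not the variation between cultures. A gene is called upregulated or downregulated where its RPKM was above 1 in both libraries and the ratio was past 1.3-fold, the fold cutoff used in the study. Of 10 cardiomyocyte marker genes, 10 were above RPKM 1 in each library, with a summed RPKM of 16778 after cel-miR-67, 15966 after miR-106b, 13397 after miR-93 and 8743 after miR-25. Genes listed as markers of other cells were expressed as well, but which cells made these RNAs was not tested. Summed RPKM of 8 fibroblast markers was between 317.3 after miR-25 and 820.6 after cel-miR-67. For 5 smooth muscle markers it was between 589.9 after miR-93 and 2056 after miR-25. Fewer cells of one type and less RNA per cell cannot be told apart in such cultures.

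Reads of near-identical genes limit how sharply isotypes can be separated. RefSeq names 24 pseudogenes after isotype genes, 14 after Tuba1b, 5 after Tuba1a, 4 after Tubb4b and 1 after Tuba4a, and the table lists 0 of them. How reads were assigned to genes, and what was done with reads of several matches, is not given in the sources used here, so the split of reads between isotypes is uncertain. Tuba1c is listed as ENSRNOG00000021438 and as ENSRNOG00000015544, with RPKM of 104.6 and 104.3 after cel-miR-67 and of 57.09 and 56.52 after miR-25. Values under both identifiers were near equal in all 4 libraries and may rest on shared reads, and the identifier with more reads was used. In RefSeq, Tuba1b and Tuba1a are neighbours on chromosome 7, where Tuba1c also lies, and Tubb2b and Tubb2a lie on chromosome 17 with 1 further tubulin gene, Tubb2al1, between them.

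In control cultures the isotypes spanned nearly 3 orders of magnitude. After cel-miR-67, RPKM was 560.7 for Tuba1b, 281.5 for Tubb5, 280.2 for Tuba1a, 257.9 for Tubb4b, 130.8 for Tuba4a, 104.6 for Tuba1c, 58.99 for Tubb6, 32.38 for Tubb2a, 4.752 for Tubb2b and 0.6974 for Tuba8. Tuba1b ranked 61 of 15731 genes by RPKM, whereas Tubb5 and Tuba1a were neighbours in this order whose values are too close to rank without replicates. The order of the alpha genes per length, Tuba1b, Tuba1a, Tuba4a, Tuba1c and Tuba8 in control, had Tuba1c above Tuba4a in the other 3 libraries. The order of the beta genes was Tubb5, Tubb4b, Tubb6, Tubb2a and Tubb2b after cel-miR-67, miR-106b and miR-93, but Tubb4b stood above Tubb5 after miR-25.

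**Figure D1:**
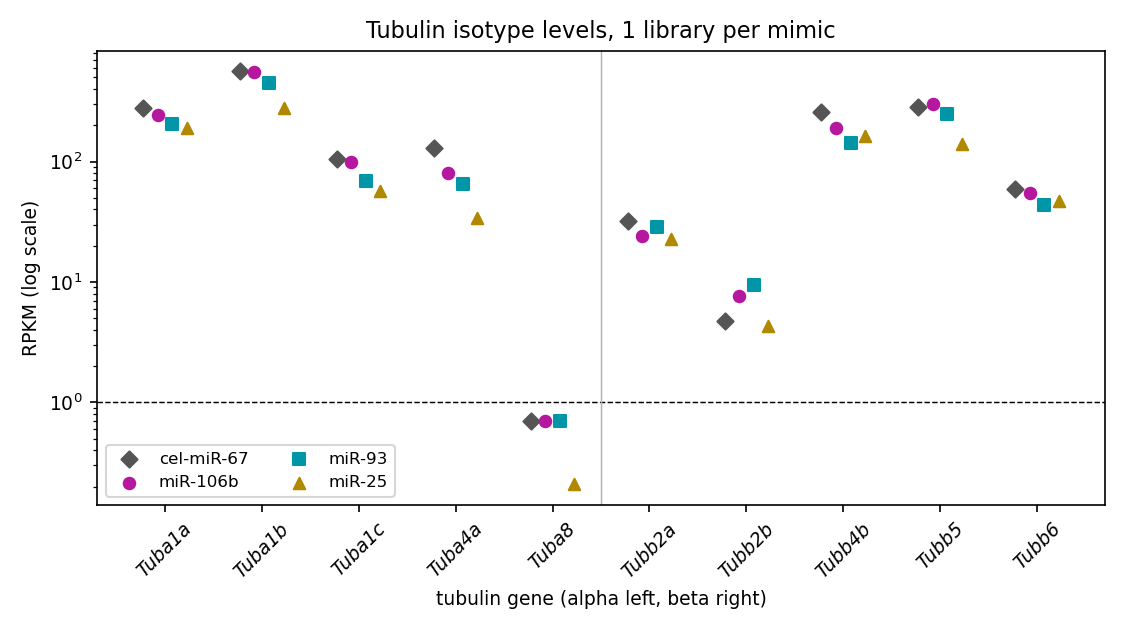
RPKM on a log axis of the 10 tubulin isotype genes in the 4 libraries, alpha genes left and beta genes right of the grey line, with 1 point per library and the dashed line at RPKM 1. The miR-25 point is the lowest for 8 of 10 genes, the exceptions being Tubb4b and Tubb6, and Tuba8 is below the line in all 4 libraries.

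By median ratio and by summed RPKM, though not for each gene, tubulin isotype expression was lowest after miR-25 and closest to control after miR-106b. After miR-106b, 1 of 9 isotypes above RPKM 1 was upregulated, Tubb2b, where 11.9% of all 11296 genes assessed were upregulated, and 3 of 9 were downregulated, Tuba4a, Tubb2a and Tubb4b, where 12.7% of all genes were. After miR-93, 1 of 9 was upregulated, again Tubb2b, beside 15.1% of 11280 genes, and 5 of 9 were downregulated, Tuba1a, Tuba1c, Tuba4a, Tubb4b and Tubb6, beside 15.6%. After miR-25, 0 of 9 was upregulated beside 19.3% of 11198 genes, and 7 of 9 were downregulated, all but Tubb2b and Tubb6, beside 22.6%. The median log2 ratio over the 9 isotypes was -0.10 after miR-106b, -0.44 after miR-93 and -0.66 after miR-25, whereas the median over all genes assessed was between -0.01 and 0.00. Abundant genes as a whole were also lower after miR-25. Among 474 genes with a mean RPKM over 100, a set taken after their values were seen, the median log2 ratio was 0.03 after miR-106b, -0.11 after miR-93 and -0.34 after miR-25, and 10.1%, 25.5% and 48.1% were downregulated in the same order. Of the isotypes, only Tuba1a, Tuba1b, Tubb4b and Tubb5 belong to this set, and the others have a lower mean RPKM.

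**Figure D2:**
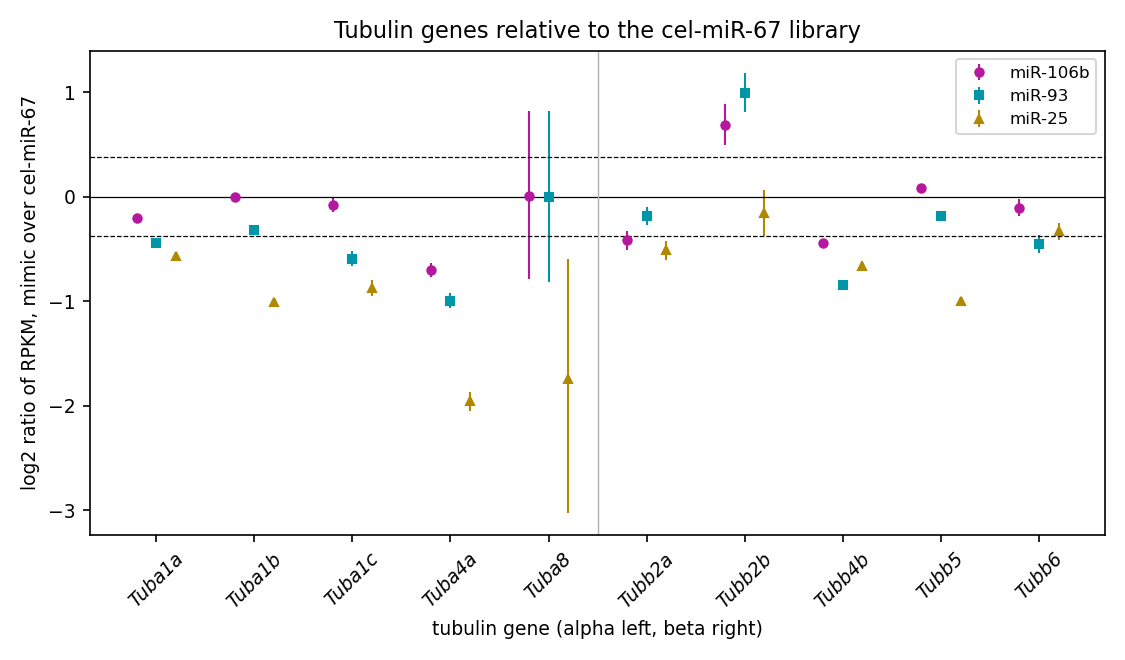
log2 ratio of RPKM of each mimic over cel-miR-67 for the 10 tubulin isotype genes, with vertical bars for the 95% exact intervals of counting error and dashed lines at 1.3-fold. Tuba4a is below the lower line for all 3 mimics, Tubb2b is above the upper line after miR-106b and miR-93, and the bars of Tuba8 are wide because it had between 9 and 33 reads.

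Among the alpha-tubulin genes, Tuba4a varied most. Tuba4a encodes an alpha-tubulin whose tail is made without the final tyrosine that the Tuba1 isotypes carry. Its RPKM was 130.8 after cel-miR-67, 80.51 after miR-106b, 65.61 after miR-93 and 33.73 after miR-25, from 4294, 3468, 2595 and 1331 reads. The control library was the highest and the miR-25 library the lowest, and all 3 mimics were below control by more than 1.3-fold. The log2 ratio over control was -0.70 (-0.77 to -0.64) after miR-106b, -0.995 (-1.07 to -0.93) after miR-93 and -1.96 (-2.05 to -1.87) after miR-25. After miR-25 Tuba4a thus stood at 25.8% of control, and only 0.339% of the genes assessed had a lower ratio. Compared directly, Tuba4a was lower after miR-25 than after miR-106b by -1.26 (-1.35 to -1.16) and than after miR-93 by -0.96 (-1.06 to -0.86) on the log2 scale.

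Tuba1b, which is expressed in most cell types, was the most abundant isotype per length in every library, although Tubb5 had more reads. RPKM of Tuba1b was 560.7 after cel-miR-67, 558.5 after miR-106b, 448.3 after miR-93 and 278.2 after miR-25, from 20445, 26716, 19693 and 12190 reads. The miR-106b library was next to control, the miR-93 library lay below, and the miR-25 library was at 49.6% of control, where its rank by RPKM was 130 instead of 61. The log2 ratio was -0.01 (-0.03 to 0.02) after miR-106b, -0.32 (-0.35 to -0.29) after miR-93, short of the 1.3-fold cutoff, and -1.01 (-1.04 to -0.98) after miR-25.

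Tuba1a, an isotype best known from developing neurons, was measured at an RPKM of 280.2 after cel-miR-67, 243.9 after miR-106b, 206 after miR-93 and 188.8 after miR-25. Control was again the highest and miR-25 the lowest, and the distance after miR-25 was smaller than for Tuba1b, at -0.20 (-0.24 to -0.16), -0.44 (-0.48 to -0.40) and -0.57 (-0.61 to -0.53) on the log2 scale in the order miR-106b, miR-93, miR-25. Tuba1c, which is expressed in many tissues, had an RPKM of 104.6 after cel-miR-67, 98.96 after miR-106b, 69.44 after miR-93 and 57.09 after miR-25. The log2 ratios of Tuba1c were -0.08 (-0.14 to -0.02), -0.59 (-0.66 to -0.52) and -0.87 (-0.95 to -0.80), so that it was downregulated after miR-93 and miR-25 and not called after miR-106b. Tuba8, a divergent isotype known from muscle and testis, was near the limit of what these libraries could measure. Its RPKM of 0.6974 after cel-miR-67, 0.7016 after miR-106b, 0.6947 after miR-93 and 0.2089 after miR-25 came from 25, 33, 30 and 9 reads. The ratio for miR-25 was -1.74 on the log2 scale with an interval from -3.02 to -0.59, and no call was made for Tuba8 because it was below RPKM 1 throughout.

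Among the beta-tubulin genes, Tubb5 and Tubb4b are expressed in most cell types and made up most of the beta RNA. RPKM of Tubb5 was 281.5 after cel-miR-67, 297.9 after miR-106b, 248.3 after miR-93 and 141 after miR-25. Only the miR-25 library was past 1.3-fold from control, at 50.1% of it, with a log2 ratio of -0.997 (-1.03 to -0.97), beside 0.08 (0.06 to 0.11) after miR-106b and -0.18 (-0.21 to -0.15) after miR-93. RPKM of Tubb4b was 257.9 after cel-miR-67, 189.8 after miR-106b, 143.5 after miR-93 and 162.8 after miR-25. Here miR-93 and not miR-25 was the lowest, and all 3 mimics were downregulated, by log2 ratios of -0.44 (-0.48 to -0.40), -0.85 (-0.89 to -0.80) and -0.66 (-0.71 to -0.62) in the order miR-106b, miR-93, miR-25.

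Tubb2b, an isotype of developing neurons, was upregulated with the pair of mimics that share a seed. Its RPKM was 4.752 after cel-miR-67, 7.664 after miR-106b, 9.469 after miR-93 and 4.268 after miR-25, from 327, 692, 785 and 353 reads. The miR-106b and miR-93 libraries stood above control at log2 ratios of 0.69 (0.50 to 0.88) and 0.995 (0.81 to 1.19), whereas the miR-25 value was -0.16 with an interval from -0.38 to 0.07 that spans no difference. Tubb2a, which lies on the same chromosome, did not share this pattern. RPKM of Tubb2a was 32.38 after cel-miR-67, 24.26 after miR-106b, 28.48 after miR-93 and 22.68 after miR-25, with control the highest and log2 ratios of -0.42 (-0.51 to -0.33), -0.19 (-0.27 to -0.10) and -0.51 (-0.61 to -0.42). Tubb6 is a beta isotype that lowers microtubule stability when abundant. RPKM of Tubb6 was 58.99 after cel-miR-67, 54.9 after miR-106b, 43.22 after miR-93 and 46.9 after miR-25, so that only miR-93 was past the cutoff, with log2 ratios of -0.10 (-0.18 to -0.02), -0.45 (-0.54 to -0.36) and -0.33 (-0.42 to -0.25).

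miR-106b and miR-93, which share a seed, were also compared with each other. Of 9 isotypes, 2 were lower after miR-93 by more than 1.3-fold, Tuba1c at -0.51 (-0.58 to -0.44) and Tubb4b at -0.40 (-0.45 to -0.36) on the log2 scale, and 0 were higher by that much, beside 8.21% and 7.3% of 11391 genes assessed. The median over the 9 was -0.30. Intervals of the other 7 all lay on one side of 0, with Tubb2a at 0.23 (0.14 to 0.32) and Tubb2b at 0.31 (0.16 to 0.46) higher after miR-93 and the other 5 lower. In the comparison of miR-25 over miR-106b, 5 of 9 were lower by more than 1.3-fold, namely Tuba1b, Tuba1c, Tuba4a, Tubb2b and Tubb5, beside 23% of 11183 genes, with Tubb5 at -1.08 (-1.11 to -1.05), and 0 were higher, beside 22.1%. In the comparison of miR-25 over miR-93, 4 of 9 were lower, the same genes without Tuba1c, beside 23% of 11198 genes, with Tubb2b at -1.15 (-1.34 to -0.97), and 0 were higher, beside 22.1%. In this last comparison Tubb4b at 0.18 (0.13 to 0.23) and Tubb6 at 0.12 (0.03 to 0.21) were on the side of miR-25, short of the cutoff.

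Summed over the group, alpha-tubulin RPKM was 1077 after cel-miR-67, 982.5 after miR-106b, 790.1 after miR-93 and 557.9 after miR-25, and beta-tubulin RPKM was 635.5, 574.6, 473 and 377.7 in the same order. By summed RPKM, both groups were lower than control with each mimic. After miR-106b alpha stood at 91.2% of control and beta at 90.4%. The same values were 73.4% and 74.4% after miR-93, and 51.8% and 59.4% after miR-25. The ratio of alpha to beta RPKM was between 1.67 and 1.71 in the libraries of cel-miR-67, miR-106b and miR-93, and 1.48 after miR-25. Alpha-tubulin genes held 0.255% of the reads on listed genes after cel-miR-67, 0.247% after miR-106b, 0.208% after miR-93 and 0.147% after miR-25. Beta-tubulin genes held 0.232%, 0.233%, 0.204% and 0.147% in the same order. By this share of reads, the beta group after miR-106b was not below control. The sums depended on the major isotypes. Without Tuba1b the alpha sum was at a log2 ratio of -0.28 after miR-106b, where it was -0.13 with all genes, and without Tubb5 the beta sum was at -0.36 after miR-106b and -0.66 after miR-93, where it was -0.15 and -0.43.

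Isotype shares, the part of its group's summed RPKM that each gene held, shifted with all mimics. Tuba1b held 52.1% of alpha RPKM after cel-miR-67, 56.8% after miR-106b, 56.7% after miR-93 and 49.9% after miR-25. Tuba1a held 26%, 24.8%, 26.1% and 33.8% in the same order, so that after miR-25 the share of Tuba1a was higher although its level was lower. The share of Tuba4a was 12.1% after cel-miR-67, 8.19% after miR-106b, 8.3% after miR-93 and 6.05% after miR-25. Tuba4a thus had its highest share in control, while Tuba1c held between 8.79% and 10.2% in all 4 libraries and Tuba8 at most 0.0879%. As shares of reads with exact 95% binomial intervals, Tuba4a held 11.1% (10.8 to 11.4) of alpha reads after cel-miR-67 and 5.49% (5.21 to 5.79) after miR-25.

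Beta shares moved in different ways with the miR-106b and miR-93 pair and after miR-25. Tubb5 held 44.3% of beta RPKM after cel-miR-67, 51.8% after miR-106b, 52.5% after miR-93 and 37.3% after miR-25. Tubb4b held 40.6%, 33%, 30.3% and 43.1%, and it was the leading beta isotype per length only after miR-25. Counted in reads, which favour the longer Tubb5 gene model of 3270 bases over that of 1647 bases for Tubb4b, Tubb5 led in all 4 libraries, with 59.2% (58.7 to 59.7) in control and 51.9% (51.3 to 52.5) after miR-25. The share of Tubb2b in beta RPKM was 0.748% after cel-miR-67, 1.33% after miR-106b, 2% after miR-93 and 1.13% after miR-25. Tubb2b was therefore a larger part of beta-tubulin RNA than in control with all 3 mimics, also after miR-25, where its own RPKM was not above control. Tubb6 held 9.28%, 9.56%, 9.14% and 12.4%, and Tubb2a 5.1%, 4.22%, 6.02% and 6%.

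**Figure D3:**
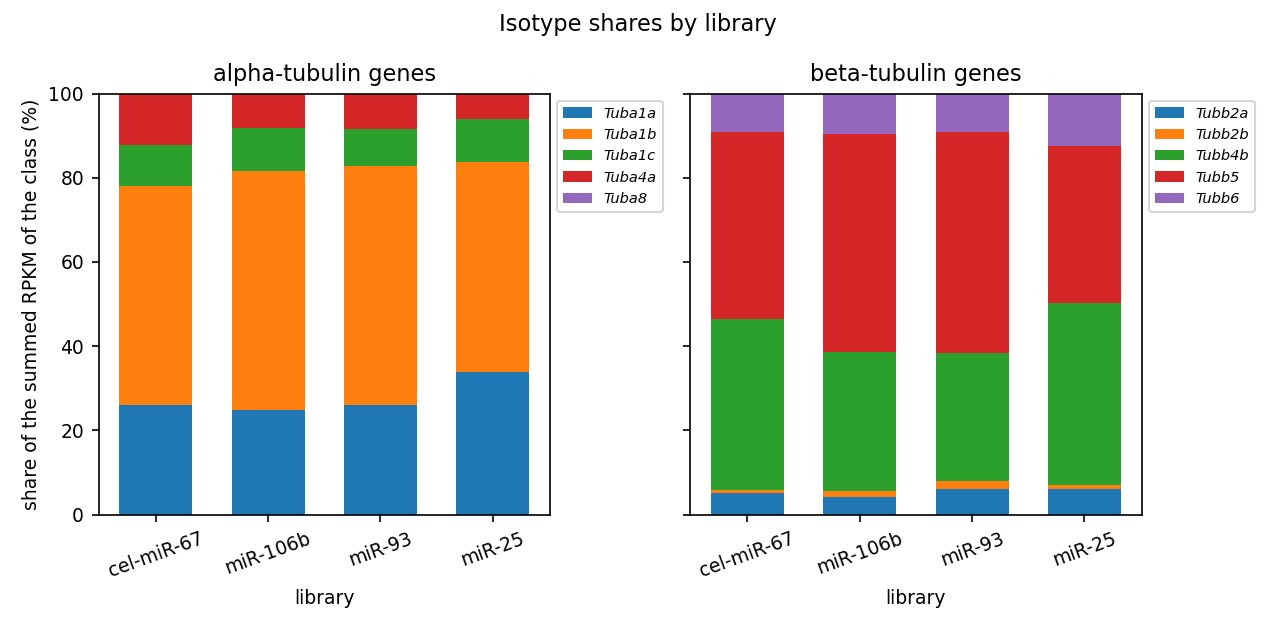
Share of each isotype gene in the summed RPKM of the alpha group (left) and the beta group (right), in percent, with 1 stacked bar per library. The segment of Tuba4a is widest after cel-miR-67 at 12.1%, that of Tuba1a is widest after miR-25 at 33.8%, and that of Tubb5 narrows to 37.3% after miR-25.

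Other genes of the tubulin system were described from lists compiled with earlier results of these libraries known. The shares of all genes upregulated and downregulated, beside which the counts of each list stand, were 11.9% and 12.7% after miR-106b, 15.1% and 15.6% after miR-93, and 19.3% and 22.6% after miR-25. Of 10 other tubulin genes, 5 were listed once, and 4 of these could be assessed after miR-106b and after miR-93 and 3 after miR-25. Of these, 1, 0 and 0 were upregulated and 1 was downregulated after each mimic, with median log2 ratios of -0.02, 0.02 and -0.33. Tubb3, the neuronal beta isotype, had an RPKM of 6.783 after cel-miR-67, 4.644 after miR-106b, 4.197 after miR-93 and 5.561 after miR-25 and was downregulated after miR-106b and miR-93, at log2 ratios of -0.55 (-0.80 to -0.29) and -0.69 (-0.96 to -0.43). Tubg1, the gamma-tubulin that seeds microtubules, was downregulated after miR-25 at -0.64 (-0.78 to -0.51). Tube1, the epsilon-tubulin of centrioles, was upregulated after miR-106b at 0.41 (0.12 to 0.70) and lay below RPKM 1 after miR-25, at 0.8675 beside 2.412 in control. Tubd1, the delta-tubulin of centrioles, was between 2.578 and 3.782 RPKM and was not called with any mimic.

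Folding of new tubulin, by prefoldin, the CCT chaperonin and the cofactors Tbca to Tbce, was represented by 21 genes above RPKM 1. After miR-106b 0 were upregulated and 1 downregulated, after miR-93 likewise 0 and 1, and after miR-25 2 and 6, with medians of 0.01, -0.04 and -0.27 on the log2 scale beside medians of all genes near 0. The 6 of 21 downregulated after miR-25 stand beside 22.6% of all genes and the 2 upregulated beside 19.3%. The genes that moved most were Pfdn1, a prefoldin subunit, at -0.96 (-1.05 to -0.88) after miR-93, and Pfdn6, another subunit, at -1.21 (-1.60 to -0.83) after miR-25. Cofactor B, Tbcb, was at -0.79 (-0.96 to -0.61) after miR-25, whereas Tbcel, which resembles cofactor E, was at 0.87 (0.61 to 1.13) after miR-25 and at -0.40 (-0.71 to -0.09) after miR-106b. Of the 4 autoregulation genes, 1 was upregulated after miR-106b, 0 after miR-93 and 2 after miR-25, and 0 were downregulated with any mimic, with medians of 0.18, 0.20 and 0.51. Ttc5, the factor that recognises nascent tubulin, was at 9.862 RPKM after cel-miR-67, 10.57 after miR-106b, 10.81 after miR-93 and 12.45 after miR-25, short of the cutoff. Its adaptor Scaper was upregulated after miR-106b at 0.44 (0.22 to 0.66) and after miR-25 at 0.69 (0.47 to 0.91), and Cnot11, which links the CCR4-NOT deadenylase to it, was upregulated after miR-25 at 0.68 (0.44 to 0.91). Cnot1, the scaffold of the deadenylase, stayed short of the cutoff at -0.11, -0.05 and 0.03 in the same order of mimics. Whether these values bear on the isotype levels was not tested.

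Of 20 genes for enzymes that modify tubulin, 17 were listed once and 10 were above RPKM 1. Of these 10, 0 were upregulated and 1 downregulated after miR-106b, 1 and 2 after miR-93, and 4 and 1 after miR-25, with medians of 0.07, 0.11 and 0.24, where 19.3% of all genes were upregulated and 22.6% downregulated after miR-25 and 15.6% downregulated after miR-93. Vash2, a carboxypeptidase that removes the final tyrosine of alpha-tubulin, had an RPKM of 8.889 after cel-miR-67, 9.143 after miR-106b, 4.721 after miR-93 and 4.224 after miR-25. It was downregulated after miR-93 at -0.91 (-1.08 to -0.75) and after miR-25 at -1.07 (-1.25 to -0.90), and the miR-106b library lay next to control. Ttll7, a polyglutamylase, was downregulated after miR-106b at -0.45 (-0.68 to -0.22) and after miR-93 at -1.09 (-1.36 to -0.82). Other members of this enzyme family were upregulated after miR-25, among them Ttll5 at 0.91 (0.64 to 1.19) and Ttll1 at 0.73 (0.36 to 1.10), and after miR-93 Ttll12 was upregulated at 0.43 (0.23 to 0.63). Nucleation of microtubules was represented by 12 genes, of which 1, 1 and 0 were upregulated and 0, 0 and 4 downregulated, in the order miR-106b, miR-93, miR-25, with medians of -0.10, 0.04 and 0.10. The 4 of 12 downregulated after miR-25 stand beside 22.6% of all genes. Mzt1, a small component of the gamma-tubulin ring complex, was upregulated after miR-106b at 0.42 (0.06 to 0.79) and miR-93 at 0.54 (0.18 to 0.91). Its subunits Tubgcp2 at -0.56 (-0.71 to -0.41) and Tubgcp6 at -0.43 (-0.58 to -0.29) were downregulated after miR-25, as was Tubg1.

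Genes whose proteins stabilise microtubules or bind their growing ends were upregulated and downregulated in the proportion of 2 to 2 of 14 after miR-106b, 1 to 5 of 14 after miR-93 and 7 to 3 of 16 after miR-25, with medians of -0.18, -0.13 and 0.21. The counts after miR-106b are near the shares of all genes, 11.9% and 12.7%, the 5 of 14 downregulated after miR-93 stand beside 15.6%, and the 7 and 3 of 16 after miR-25 beside 19.3% and 22.6%. Map1a, a microtubule-associated protein, was downregulated with all 3 mimics, at -0.56 (-0.63 to -0.48) after miR-106b, -1.12 (-1.20 to -1.03) after miR-93 and -0.65 (-0.72 to -0.57) after miR-25, and the related Map1b after miR-93 at -0.69 (-0.77 to -0.62). The plus-end protein Clip1 had an RPKM of 9.922 after cel-miR-67, 6.922 after miR-106b, 6.531 after miR-93 and 24.16 after miR-25. It was thus on opposite sides of control with the seed-sharing pair and after miR-25, at 1.28 (1.21 to 1.36) with the latter. Map9, a spindle-associated protein, was upregulated after miR-106b at 0.52 (0.33 to 0.73) and miR-25 at 1.52 (1.34 to 1.70). Genes for proteins that destabilise or sever microtubules were upregulated and downregulated in the proportion of 4 to 0 of 9 after miR-106b, 1 to 0 of 8 after miR-93 and 2 to 3 of 9 after miR-25, with medians of 0.28, 0.29 and -0.12. The 4 of 9 upregulated after miR-106b stand beside 11.9% of all genes, while 1 of 8 after miR-93 and 2 of 9 after miR-25 are near the 15.1% and 19.3% of all genes. Stmn1, which sequesters tubulin dimers, had an RPKM of 21.44 after cel-miR-67, 30.27 after miR-106b, 27.41 after miR-93 and 9.536 after miR-25. Kif2c, a kinesin that depolymerises microtubule ends in mitosis, was likewise above control after miR-106b at 0.90 (0.74 to 1.06) and miR-93 at 0.56 (0.39 to 0.73) and below it after miR-25 at -1.95 (-2.23 to -1.67). Stmn4, a relative of Stmn1 known from neurons, was uneven over the libraries, at 3.308 after cel-miR-67, 8.493 after miR-106b, 0.2591 after miR-93 and 9.79 after miR-25.

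**Figure D4:**
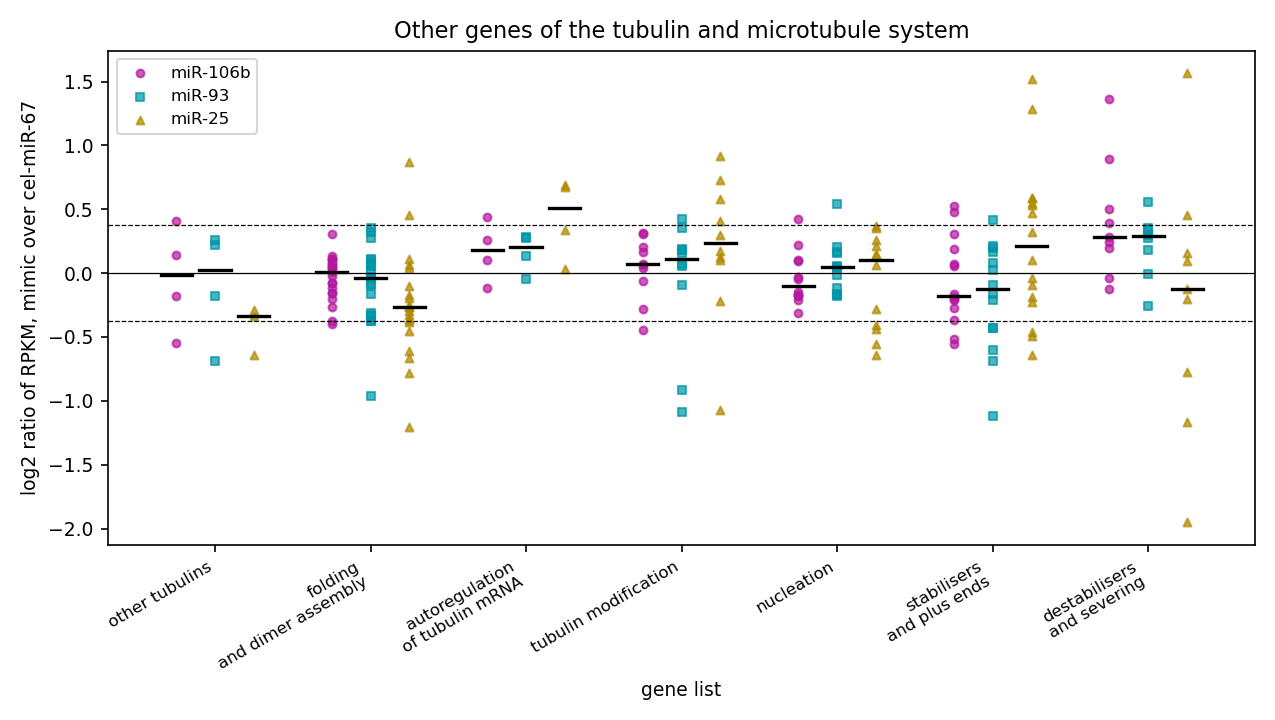
log2 ratio of RPKM of each mimic over cel-miR-67 for genes of 7 lists of the tubulin and microtubule system, 1 point per gene above RPKM 1 in both libraries, with a black bar at the median of each list and dashed lines at 1.3-fold. Medians lie between -0.33 and 0.51, with the highest for the 4 autoregulation genes after miR-25.

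Markers of mitosis moved with the libraries. Of 15 mitosis genes, 14 were upregulated after miR-106b and 10 after miR-93, beside 11.9% and 15.1% of all genes. After miR-25, 13 were downregulated, beside 22.6% of all genes. Summed RPKM of the mitosis genes was 189.3 after cel-miR-67, 343.2 after miR-106b, 275.1 after miR-93 and 94 after miR-25. Ccnb1, cyclin B1, was at 10.38 RPKM after cel-miR-67, 46.13 after miR-106b, 36.91 after miR-93 and 10.17 after miR-25, and the proliferation marker Mki67 at 21.44, 34.29, 27.06 and 7.914. After miR-106b and miR-93 the summed RPKM of the mitosis genes was above control and that of both tubulin groups below it. As a share of reads on listed genes, however, the beta group was at 0.233% after miR-106b beside 0.232% in control. Tubb5 was above control after miR-106b, at a log2 ratio of 0.08 (0.06 to 0.11). A relation between mitosis markers and tubulin levels was not tested. After miR-25, cardiomyocyte markers were also lower, 10 of 10 downregulated, beside 22.6% of all genes, with a median log2 ratio of -1.03. Of 5 smooth muscle markers 4 were upregulated after miR-25, beside 19.3% of all genes, and 1, Smtn, was downregulated at -0.46. Fibroblast markers were downregulated in 5 of 8 after miR-106b, 4 of 8 after miR-93 and 7 of 8 after miR-25, beside 12.7%, 15.6% and 22.6% of all genes, and the eighth marker, Lum, was upregulated at 0.87 after miR-25. Summed RPKM was between 6.03 and 7.754 for 5 endothelial markers, between 6.606 and 16.29 for 6 macrophage markers and between 1.493 and 2.682 for 4 neuron and Schwann cell markers, and none of these markers was at 0. The part of these shifts in the tubulin values was not tested.

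Genes with the most similar pattern were sought for Tuba4a, the isotype with the widest range over the 4 libraries, and for Tuba1b, the isotype with the largest share. Likeness was the Euclidean distance between the 3 log2 ratios over cel-miR-67, among 4169 genes with RPKM above 10 in all 4 libraries. Closest to Tuba4a were Itga5, an integrin subunit, at a distance of 0.38, S100a4, a calcium-binding protein, at 0.42, and Mgp, a matrix protein, at 0.45. Closest to Tuba1b were Ndufa4, a mitochondrial respiratory chain protein, at 0.022, Psmb6, a proteasome subunit, at 0.029, and Rnf4, a ubiquitin ligase, at 0.1. Distances to Tuba1b were smaller than those to Tuba4a, but Tuba4a was chosen for its wide range, so this difference is no separate result. All ratios share the 1 control library.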

How the data were processed

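RNA of 4 cultures, 1 per mimic, was sequenced. As the methods state, the authors checked reads with FASTQC, trimmed adaptors with Cutadapt, aligned the reads with STAR to Rnor 6.0, rounded gene counts and computed the deposited RPKM values with edgeR. The submitters' processing notes give the STAR version as 2.7. RPKM is scaled to gene length and library size, so levels can be compared between genes per length.

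Reads behind the RPKM values were recovered from the size of the RPKM steps, since within 1 library the values of a gene are whole multiples of what 1 read is worth, a procedure tested on simulated data. Library sizes behind the RPKM values were between 22674410 and 29749467 reads. Ratios used the RPKM values without a pseudocount. With 1 library per mimic, no count test was applied. Intervals are exact Clopper-Pearson intervals of the recovered reads at 95%. They cover counting error only and not the variation between cultures. Each read is treated as independent, although reads carried no molecular identifiers. Gene groups are described by counts and medians.

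The tubulin genes, the gene lists and the marker lists were chosen with earlier results of these data known. Named genes were all isotypes, up to 3 genes with the largest change per list and mimic, the autoregulation genes, other tubulins above RPKM 1, Ccnb1, Mki67 and the genes of most similar pattern. Symbols listed more than once, 176 in all, were left out of the lists. Alternatives were an RPKM cutoff of 2, an RPKM cutoff passed in either library, a fold cutoff of 1.5, a pseudocount of 1, centring on the median gene, calls kept only beyond counting error, sums and shares of reads, and sums without the leading isotype. Promoter and miRNA sequences were taken from RefSeq. Computations used Python 3.11.15, numpy 2.4.6, pandas 2.3.3, scipy 1.17.1 and matplotlib 3.10.9.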

Additional observations from a re-analysis of the deposited data

How the results depend on the processing

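No paired analysis was possible because each mimic had 1 library, and for the same reason no library could be left out. With a fold cutoff of 1.5, 1 isotype instead of 3 was downregulated with miR-106b and 3 instead of 5 with miR-93, and the count for miR-25 went from 7 to 5. Without Tuba1b the log2 ratio of the alpha sum was -0.284, -0.595 and -0.884 in the order miR-106b, miR-93, miR-25. Summed as reads, the beta group was at -0.076, -0.334 and -0.807, and without Tubb5 at -0.355, -0.656 and -0.581. These follow from the construction of the sums. Over all alternatives, 18 of 18 for isotypes upregulated and 16 of 18 for isotypes downregulated stayed near the reported value. A count was taken as near within 1.5-fold, as was 5 beside 7 after miR-25. The RPKM cutoffs could not change a call, because the isotypes assessed had an RPKM of at least 4.268 and Tuba8 at most 0.7016. Centring shifted log2 ratios by at most 0.012. For summed levels 15 of 24 stayed near, namely centring, the alpha sum of reads and the alternatives of Tuba1c. Those of Tuba1c, its second identifier alone or both, were chosen after seeing the data, and the 9 that moved were all planned. Log2 ratios of single isotypes moved in 1 of 60, Tuba8 with miR-25 under a pseudocount of 1. Only a pseudocount of 1 and centring were tried for these ratios. Both act weakly on the isotypes assessed, so little movement was possible and the count says little about stability. Shares of RPKM and of reads differed beyond counting error in 33 of 40, which follows where gene models differ in length. Under these alternatives no log2 ratio of a summed level or of a single isotype changed sign. A change of direction was not defined for counts and shares. Scaling to reads on listed genes was not among the alternatives. By it the beta group after miR-106b was at 0.233%, beside 0.232% in control, and thus not below it. At these depths the ratios of Tuba8, from 9 to 33 reads, could not be fixed closely, and Tubb2b after miR-25 could not be told from control.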
